A study of Mus musculus with 8 samples.

Results

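The genes of the RNA polymerase II preinitiation complex and of Mediator were measured in sciatic nerves of mice in which Cre from the Cnp locus deletes Cdk7. The set was chosen by gene symbol. It takes the general transcription factor families Gtf2a, Gtf2b, Gtf2e, Gtf2f and Gtf2h with Ercc2 and Ercc3, the TATA-binding protein gene Tbp, the numbered Taf genes, the numbered Med genes and the Mediator kinase genes Cdk8, Cdk19 and Ccnc. In all, 71 of the 55487 genes in the table matched. The name rule also takes the 4 genes Taf1a to Taf1d, whose products serve RNA polymerase I in the SL1 complex, and 2 Taf-like genes, Taf5l and Taf6l, whose products belong to the SAGA coactivator.

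The 8 libraries were made from polyadenylated RNA of whole sciatic nerves at postnatal day 6, in 2 groups of 4. CNP-Cdk7cKO mice were CNPcre/+ Cdk7lox/lox, and Ctrl mice were CNP+/+ Cdk7lox/lox. Both groups therefore carried floxed Cdk7 on both alleles, and the groups differed in Cre, which sits at 1 Cnp allele and is known to act in myelinating glia. A nerve also holds fibroblasts, perineurial cells, endothelium and macrophages, which keep Cdk7 unless Cre acts in them, and in such bulk RNA fewer cells of a type and less RNA per cell cannot be told apart.

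Transcription by RNA polymerase II starts when TFIID, which contains TBP and its associated factors (TAFs), settles on a promoter and TFIIA, TFIIB, TFIIF with the polymerase, TFIIE and TFIIH join it. Mediator links this complex to activators bound at enhancers through its head, middle and tail, and a detachable kinase module of Cdk8 or Cdk19 with cyclin C, Med12 and Med13 can keep it from the polymerase. Cdk7 is the kinase of TFIIH that phosphorylates the tail of the largest polymerase subunit, a step that loosens the polymerase from Mediator.

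The libraries held between 16897242 and 21527891 estimated counts. Cdk7 itself was lower in CNP-Cdk7cKO, with 9.62, 11.8, 12.7 and 12.1 CPM (counts scaled to the library's total adjusted by trimmed mean of M values, TMM) in CNP-Cdk7cKO 1 to 4, against 21.7, 22.2, 21.4 and 20.6 CPM in Ctrl 1 to 4 (log2 fold change -0.89 ± 0.09 SE, edgeR quasi-likelihood test, Benjamini-Hochberg adjusted p = 0.000181). Since counts were summed over the gene, a message made from the recombined allele still contributes to this value. The groups also differed in sex. Xist measured 281 to 331 CPM in the CNP-Cdk7cKO libraries and 305 CPM in Ctrl 1, but at most 0.10 CPM in Ctrl 2 to 4, which instead held 94.4 to 107 CPM of 4 Y-linked genes. Skeletal muscle markers took 0.0145% to 0.0790% of counts in CNP-Cdk7cKO and 0.0649% to 0.618% in Ctrl. All 20 had a log2 fold change below 0, and 18 were called lower at an adjusted p under 0.05. Of all 15056 tested genes 6.6% were called lower and 5.07% higher. The 10 Schwann cell markers were all detected, with a sum of 101400 to 111100 CPM in CNP-Cdk7cKO and 133000 to 149200 CPM in Ctrl. Of the 10, 9 had a log2 fold change below 0, and 6 were called lower. Of the 8 markers of fibroblasts and perineurium 8 lay above 0 and 2 were called higher. Of the 6 macrophage markers 5 lay above 0 and 2 were called higher. The part of sex, muscle and cell makeup in the results below was not tested beyond the covariate fits named there.

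The RNA of this machinery was close to level between the groups. Of the 71 genes, 69 had enough counts to be tested; Taf7l and Gtf2a1l, a pair of genes known for their roles in male germ cells, reached at most 0.05 and 0.10 CPM in any library. Of the 69, 1 rose (Taf13) and 1 fell (Cdk19), together 2.9%, where 11.7% of all 15056 tested genes were called at an adjusted p under 0.05 (5.07% higher and 6.6% lower). The log2 fold changes of the 69 genes, CNP-Cdk7cKO over Ctrl, ran from -0.34 to 0.32 with a median of 0.06, against a median of 0.00 for all tested genes. The value was above 0 for 43 of the 69 (62.3%) and for 50.7% of all tested genes. An absolute log2 fold change over 0.5 occurred in 0 of the 69 and in 8.06% of all tested genes. The median absolute log2 fold change was similar, at 0.11 in the set and 0.12 over all tested genes. The summed level of the 71 genes was 2007 ± 10.8 CPM in CNP-Cdk7cKO and 1967 ± 32.4 CPM in Ctrl (SD, n = 4 each).

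The intervals bound the change in each gene, and they do not give the smallest change that would be called. The 95% confidence interval of the fold change lay within 1.5-fold either way for 66 of the 69 genes (95.7%), against 73.7% of all tested genes, and within 2-fold for all 69. The exceptions at 1.5-fold were Taf9, Taf4b and Taf5. The median SE of the log2 fold change was 0.075 in the set and 0.089 over all tested genes. At an unadjusted p under 0.05 there were 12 genes, 9 higher and 3 lower (17.4%, against 26.1% of all tested genes). The 4 CNP-Cdk7cKO values lay wholly outside the 4 Ctrl values for 12 genes, 8 higher and 4 lower (17.4%, against 18.8%).

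**Figure D1:**
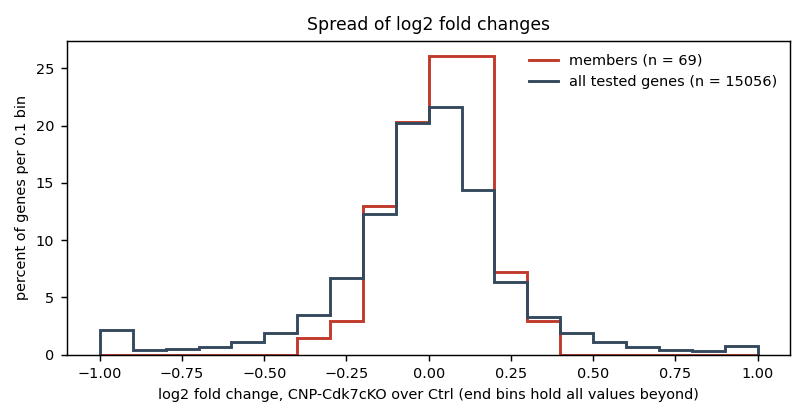
Histograms of the log2 fold change (CNP-Cdk7cKO over Ctrl) in steps of 0.1, as percent of the 69 tested preinitiation complex and Mediator genes and of all 15056 tested genes. The end bins collect all values beyond -0.9 and 0.9; the 69 genes occupy the middle, between -0.34 and 0.32.

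Levels within the set spread widely. Per kilobase of the median protein-coding transcript, the highest mean was that of Med22, a Mediator head subunit, with 62.9 CPM per kb in CNP-Cdk7cKO and 60.1 in Ctrl. It was followed by Med28 with 47.7 in CNP-Cdk7cKO and 44.5 in Ctrl. The rank of Med28 depends on the length used, which was 734 bases here and is 5011 over all its annotated exons. The lowest among the tested genes was Taf4b, the variant of Taf4 known from gonads, with 0.366 CPM per kb in CNP-Cdk7cKO and 0.293 in Ctrl. Its widely expressed counterpart Taf4 had 6.44 CPM per kb in CNP-Cdk7cKO and 6.47 in Ctrl. Tbp had 8.40 CPM per kb in CNP-Cdk7cKO and 7.98 in Ctrl.

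**Figure D2:**
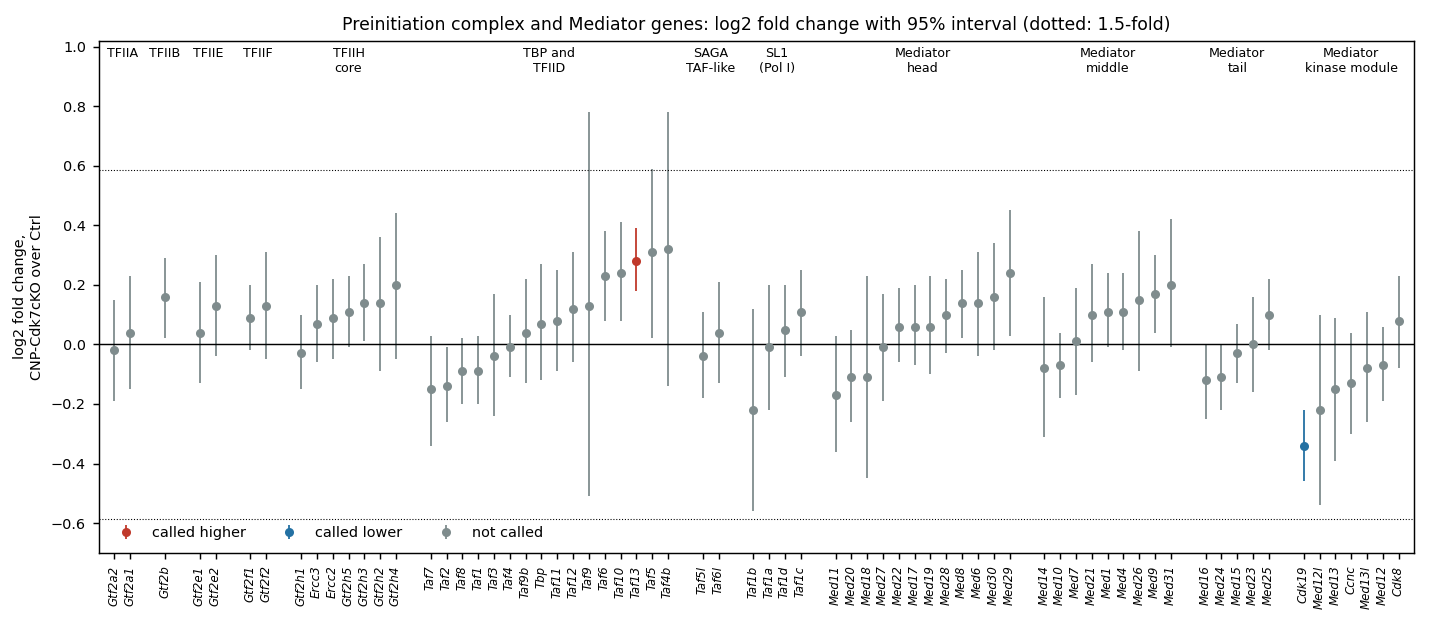
Log2 fold change of each of the 69 tested genes with its 95% interval, grouped by complex; dotted lines mark 1.5-fold. Taf13 (red) and Cdk19 (blue) are the called genes, and 6 of the 7 genes of the Mediator kinase module lie below 0.

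The factors that position the polymerase were not called in either direction. TFIIA steadies TBP on DNA, and its genes Gtf2a1 and Gtf2a2 had log2 fold changes of 0.04 ± 0.09 and -0.02 ± 0.08 (SE). Gtf2b, which encodes the single-chain factor TFIIB that bridges TBP and the polymerase, had 29.5, 26.3, 28.2 and 28.8 CPM in CNP-Cdk7cKO 1 to 4 and 26.5, 23.7, 24.1 and 26.9 CPM in Ctrl 1 to 4. CNP-Cdk7cKO 2 was below Ctrl 1 and Ctrl 4, so the groups overlapped, and the log2 fold change of 0.16 ± 0.06 was not called (adjusted p = 0.13). The TFIIE genes Gtf2e1 and Gtf2e2 had values of 0.04 and 0.13, and the TFIIF genes Gtf2f1 and Gtf2f2 values of 0.09 and 0.13. TFIIE recruits TFIIH, and TFIIF escorts the polymerase to the promoter.

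The core of TFIIH, the part of the complex other than the Cdk7 kinase, held no called gene either. It holds the DNA helicases Ercc2 (XPD) and Ercc3 (XPB) and also serves nucleotide excision repair. Of its 7 genes 0 were called and 6 had a log2 fold change above 0. The values ran from -0.03 (Gtf2h1) to 0.20 (Gtf2h4) with a median of 0.11. Of all tested genes 11.7% were called and 50.7% lay above 0. The core summed to 210 to 233 CPM in CNP-Cdk7cKO and 203 to 216 CPM in Ctrl, so the groups overlapped. Ercc2 had a log2 fold change of 0.09 ± 0.06 and Ercc3 one of 0.07 ± 0.06 (SE). Ercc2 overlaps Klc3 on the other strand in 744 exonic bases, and the sources used here do not say whether the counting used strand. The kinase module of TFIIH was measured beside it: Cdk7 fell, while its cyclin Ccnh had 16.9 ± 0.66 CPM in CNP-Cdk7cKO and 18.1 ± 1.84 CPM in Ctrl. The assembly factor Mnat1 had 13.1 ± 0.35 CPM in CNP-Cdk7cKO and 12.9 ± 0.43 CPM in Ctrl (SD, n = 4 each). Neither was called (adjusted p = 0.469 and 0.896).

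TFIID held the gene that rose. Taf13 encodes a histone-fold TAF that pairs with Taf11 and contacts TBP. It lies on chr3:108571698-108583222 (GRCm38, plus strand) and measured 49.0, 47.1, 48.3 and 47.8 CPM in CNP-Cdk7cKO 1 to 4, against 41.5, 39.4, 37.3 and 39.8 CPM in Ctrl 1 to 4. All 4 CNP-Cdk7cKO libraries were above the highest Ctrl library, Ctrl 1, and they lay within 2 CPM of each other. The means were 48.1 ± 0.78 CPM in CNP-Cdk7cKO and 39.5 ± 1.72 CPM in Ctrl (SD, n = 4 each), a log2 fold change of 0.28 ± 0.05 SE (95% interval 0.18 to 0.39, adjusted p = 0.00387). The call was kept whichever library was left out (adjusted p between 0.00585 and 0.0157). It was lost when Xist was a covariate (0.21, adjusted p = 0.221), when the muscle markers were (0.26, adjusted p = 0.194) and among the female libraries alone, where Ctrl 1 is the lone control (0.21, adjusted p = 0.395). In those fits 1.55%, 1.78% and 0.718% of all tested genes were called, and the median SE over the 69 genes was 1.66, 1.75 and 1.81 times as large. Of the 31-base words in Taf13 exons, 10.1% occur in another gene, mostly the pseudogene Gm11189.

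Promoters of 300 bases, 250 before and 50 after the annotated start, were found for 61 of the 71 genes in the RefSeq table (GRCm38.p6). Of these 61 genes Taf13 was the single one with TATAAA on the gene strand 40 to 11 bases before a start (1.64%), against 2.51% of all genes in the table. The stretch is shown because it belongs to the 1 gene that rose; capitals mark 5 words searched as exact letters on either strand, with no overlap among the matches. They are the TATA box word TATAAA, the CAAT box word CCAAT, the ETS word CCGGAAG, the GC box word GGGCGG and the YY1 word AAGATGGC.
Taf13 promoter, chr3:108571449-108571748, plus strand: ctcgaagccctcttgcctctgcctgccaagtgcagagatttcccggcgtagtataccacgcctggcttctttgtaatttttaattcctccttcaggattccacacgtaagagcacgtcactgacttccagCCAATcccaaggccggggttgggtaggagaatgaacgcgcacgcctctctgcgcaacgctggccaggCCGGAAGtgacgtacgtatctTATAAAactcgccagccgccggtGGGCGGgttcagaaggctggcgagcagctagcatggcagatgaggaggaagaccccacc

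Other promoter letters were common across the set. The ETS word CCGGAAG occurred in 34.4% of the 61 genes and in 9.93% of all genes. The YY1 word occurred in 13.1% of the set and 3.19% of all genes, the GC box word in 70.5% and 38.2%, and the CAAT box word in 36.1% and 41.1%. A CpG-rich promoter, with a CpG observed over expected ratio of at least 0.6 and GC over 50%, was found for 88.5% of the set and 35.8% of all genes. All genes here are the 27025 with a promoter in the RefSeq table, whether or not they were expressed enough to be tested. A comparison with tested genes alone was not made, so these shares are not shown to be particular to the set. A match describes the letters and does not show binding.

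The partner of Taf13 and the other TAFs were not called. Taf11, the histone-fold partner of Taf13, measured 23.4, 21.1, 22.7 and 26.1 CPM in CNP-Cdk7cKO 1 to 4 and 24.7, 21.1, 21.1 and 21.4 CPM in Ctrl 1 to 4. The groups overlapped, with a log2 fold change of 0.08 ± 0.08 (adjusted p = 0.56). The ratio of Taf13 to Taf11, compared as a pair, had a log2 mean of 1.05 ± 0.12 in CNP-Cdk7cKO and 0.84 ± 0.07 in Ctrl (SD, n = 4 each). That difference of 0.21 gave an exact permutation p of 0.0857 (two-sided) and 0.171 after adjustment over the 8 pairs compared.

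Taf6 and Taf10 came closest to a call after Taf13. Taf6, whose product pairs with Taf9, had 41.4, 37.8, 38.7 and 38.5 CPM in CNP-Cdk7cKO 1 to 4 and 36.7, 32.2, 34.9 and 29.6 CPM in Ctrl 1 to 4. Taf10, which pairs with Taf8 or Taf3, had 31.8, 34.4, 33.1 and 34.6 CPM in CNP-Cdk7cKO 1 to 4 and 27.8, 24.4, 31.6 and 29.4 CPM in Ctrl 1 to 4. For both genes each CNP-Cdk7cKO library was above each Ctrl library. The log2 fold changes were 0.23 ± 0.07 for Taf6 (adjusted p = 0.0525) and 0.24 ± 0.07 for Taf10 (adjusted p = 0.0601), and neither was called. Taf6 passed without Ctrl 1 (adjusted p = 0.0308), with no count filter (0.0487), with DESeq2 (0.0393), with limma-voom (0.0333) and with the replicate block (0.0374). Taf10 passed without Ctrl 3 (adjusted p = 0.034) and with DESeq2 (0.0488). With the Xist covariate Taf6 had a value of 0.09 and Taf10 one of 0.27. Among the female libraries alone, where Ctrl 1 is the lone control, the values were also 0.09 and 0.27. With the muscle covariate Taf6 had a value of 0.06 and Taf10 one of 0.29. Taf10 shares 2106 exonic bases with the abundant gene Ilk on the other strand, and Taf6 shares 1185 with Ap4m1.

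The TAFs that pair with Taf10 lay on the other side of 0. Taf8 had a log2 fold change of -0.09 ± 0.05, with all 4 CNP-Cdk7cKO libraries below all Ctrl libraries, and Taf3 one of -0.04 ± 0.09; neither was called. The log2 ratio of Taf10 to Taf8 was 0.44 ± 0.08 in CNP-Cdk7cKO and 0.09 ± 0.18 in Ctrl (SD, n = 4 each), and the ratio of Taf10 to Taf3 was 1.11 ± 0.05 in CNP-Cdk7cKO and 0.83 ± 0.15 in Ctrl. The differences were 0.34 and 0.28. The separation of the first follows from the gene values, since the groups did not overlap for Taf10 or, in the other direction, for Taf8, and its p adds nothing to them. The second had an exact permutation p of 0.0286, the smallest that 4 against 4 libraries can give, and 0.0762 over the 8 pairs, which did not pass. The Taf10 groups were already apart, so this p adds little to the Taf10 values. With that smallest p a lone pair among 8 cannot pass, so the adjusted value decides nothing. The other pairs within TFIID were Taf6 with Taf9b, whose log2 ratio differed by 0.19 (exact permutation p = 0.257), and Taf12 with Taf4, by 0.12 (exact permutation p = 0.314).

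The rest of TFIID showed no called gene. Of its 16 tested genes 10 had a log2 fold change above 0 (62.5%, against 50.7% of all tested genes). The values ran from -0.15 (Taf7) to 0.32 (Taf4b), with a median of 0.08. Tbp had 15.6, 17.0, 19.2 and 14.8 CPM in CNP-Cdk7cKO 1 to 4 and 16.0, 14.7, 16.4 and 16.1 CPM in Ctrl 1 to 4, with the groups overlapping (log2 fold change 0.07 ± 0.09). Taf1, the largest TAF and the scaffold of TFIID, is X-linked and had a value of -0.09 ± 0.05. Taf2, which contacts the initiator element, had -0.14 ± 0.06 with groups that did not overlap (adjusted p = 0.166). Taf5 had 0.31 ± 0.13 (adjusted p = 0.16) at 5.22 ± 0.25 CPM in CNP-Cdk7cKO and 4.21 ± 0.54 CPM in Ctrl (SD, n = 4 each). Summed over its 17 genes, TFIID reached 352 to 358 CPM in CNP-Cdk7cKO and 329 to 346 CPM in Ctrl, so that the sums did not overlap. The same was true of Mediator middle, with 190 to 199 CPM in CNP-Cdk7cKO and 180 to 187 CPM in Ctrl, and of TFIIF, with 69.2 to 75.9 CPM in CNP-Cdk7cKO and 65.4 to 68.9 CPM in Ctrl. The TFIID means were 355 ± 2.69 CPM in CNP-Cdk7cKO and 337 ± 6.88 CPM in Ctrl (SD, n = 4 each). Taf13, Taf6 and Taf10 are part of them, with means of 48.07, 39.09 and 33.47 CPM in CNP-Cdk7cKO. In Ctrl their means were 39.51, 33.35 and 28.27 CPM. The groups did not overlap for these genes on their own, so the TFIID sum largely restates them. How often such sums separate in other gene sets was not tested.

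The Taf9 value cannot be read as that gene alone. Taf9 lies within the same locus and strand as Ak6, an adenylate kinase gene, and 70.7% of its 31-base words also occur in Ak6. Taf9 was estimated at 6.52, 2.46, 3.69 and 5.59 CPM in CNP-Cdk7cKO 1 to 4 and at 5.51, 4.70, 3.57 and 2.93 CPM in Ctrl 1 to 4, a wide overlap. Taf9 and Ak6 together had 52.5 ± 2.75 CPM in CNP-Cdk7cKO and 48.4 ± 3.41 CPM in Ctrl. Its X-linked paralogue Taf9b, which shares no such words with it, had 28.6 ± 2.13 CPM in CNP-Cdk7cKO and 27.7 ± 2.87 CPM in Ctrl (SD, n = 4 each). Outside TFIID proper, the SAGA genes Taf5l and Taf6l had log2 fold changes of -0.04 and 0.04, and the 4 SL1 genes values from -0.22 to 0.11, with 0 called in either complex.

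**Figure D3:**
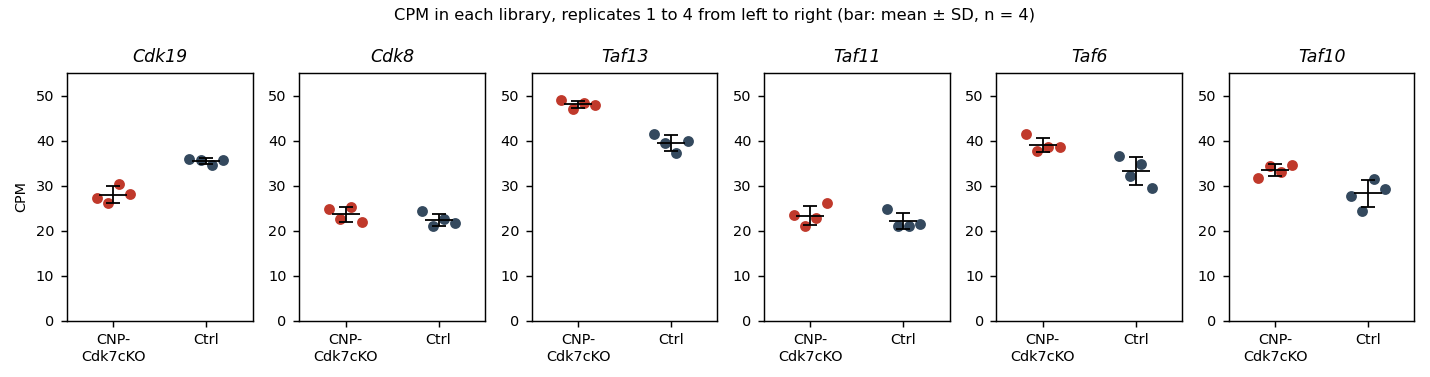
CPM per library (points) with mean ± SD (bars, n = 4) for Cdk19, Cdk8, Taf13, Taf11, Taf6 and Taf10, CNP-Cdk7cKO left of Ctrl in each panel. Cdk19 lies lower in all 4 CNP-Cdk7cKO libraries and Taf13 higher, while the groups overlap for Cdk8 and Taf11.

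In Mediator the gene that fell was Cdk19. It encodes the alternative kinase of the Mediator kinase module and is the vertebrate paralogue of Cdk8; a module contains either kinase. Cdk19 lies on chr10:40339564-40483818 (GRCm38) and measured 27.4, 26.1, 30.5 and 28.2 CPM in CNP-Cdk7cKO 1 to 4, against 36.0, 35.7, 34.5 and 35.7 CPM in Ctrl 1 to 4. Each CNP-Cdk7cKO library was below each Ctrl library, with a gap from 30.5 to 34.5 CPM between the groups. The means were 28.0 ± 1.84 CPM in CNP-Cdk7cKO and 35.5 ± 0.64 CPM in Ctrl (SD, n = 4 each), a log2 fold change of -0.34 ± 0.06 SE (95% interval -0.46 to -0.22, adjusted p = 0.00322). The call was kept whichever library was left out (adjusted p between 0.00235 and 0.0139). It was lost with the Xist covariate (-0.36, adjusted p = 0.0922), with the muscle covariate (-0.43, adjusted p = 0.0569) and among the female libraries alone (-0.36, adjusted p = 0.232), where the estimate was no smaller. Its antisense gene Cdk19os averaged 0.75 counts per library.

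Cdk8 was not called. It had 24.9, 22.6, 25.3 and 21.8 CPM in CNP-Cdk7cKO 1 to 4 and 24.3, 21.1, 22.6 and 21.7 CPM in Ctrl 1 to 4. The groups overlapped, with a log2 fold change of 0.08 ± 0.07 (95% interval -0.08 to 0.23, adjusted p = 0.534). Of the 31-base words in Cdk8 exons, 8.77% occur in another gene, mostly Gm7107, against 0% for Cdk19. Reads of the paralogues can be told apart: their coding sequences are 74.6% identical (1038 of 1392 aligned bases), and they share 0 words of 31 bases. The first 150 coding bases are shown because they make this visible, with capitals at the 31 positions that differ; they come from GENCODE transcripts on GRCm38 and span 2 exons in each gene.
Cdk19, chr10:40349594-40394346, plus strand: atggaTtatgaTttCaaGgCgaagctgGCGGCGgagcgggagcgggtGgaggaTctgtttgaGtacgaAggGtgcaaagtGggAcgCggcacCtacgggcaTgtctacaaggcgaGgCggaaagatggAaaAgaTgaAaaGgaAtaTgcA
Cdk8, chr5:146231693-146259526, plus strand: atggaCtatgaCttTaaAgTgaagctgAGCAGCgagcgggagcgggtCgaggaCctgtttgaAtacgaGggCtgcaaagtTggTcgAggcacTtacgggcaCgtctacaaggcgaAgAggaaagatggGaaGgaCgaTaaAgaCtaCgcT

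The share of Cdk19 among the kinase messages was read from the same values. Cdk19 made up 52.4%, 53.6%, 54.7% and 56.3% of the summed Cdk19 and Cdk8 CPM in CNP-Cdk7cKO 1 to 4, against 59.7%, 62.8%, 60.4% and 62.1% in Ctrl 1 to 4. All CNP-Cdk7cKO shares were below all Ctrl shares, which largely restates the lower Cdk19 values. Per kilobase of the median protein-coding transcript (4890 bases for Cdk19 and 2720 for Cdk8) the share was 39.8% ± 1.62 in CNP-Cdk7cKO and 46.8% ± 1.51 in Ctrl (SD, n = 4 each). Counted over all annotated exons Cdk8 is the longer gene (5846 bases for Cdk19 and 9832 for Cdk8), so the order of the kinases per length depends on the length used. The log2 ratio of Cdk19 to Cdk8 differed by -0.42. Its exact permutation p was 0.0286, the smallest possible, and 0.0762 over the 8 pairs compared, which did not pass. The Cdk19 groups were already apart, so this p adds little to the call. With that smallest p a lone pair among 8 cannot pass, so the adjusted value decides nothing. The kinases together had 51.7 ± 3.1 CPM in CNP-Cdk7cKO and 57.9 ± 1.59 CPM in Ctrl.

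The other genes of the kinase module lay mostly below 0 without a call, and 1 library stood low for several of them. Med12 activates the kinase, Med13 ties the module to Mediator, and cyclin C (Ccnc) is the kinase's cyclin. Med13 had 54.2, 50.6, 52.8 and 36.0 CPM in CNP-Cdk7cKO 1 to 4 and 51.4, 52.4, 53.2 and 57.2 CPM in Ctrl 1 to 4. CNP-Cdk7cKO 4 stood below the other 7 libraries, which lay between 50.6 and 57.2 CPM. Med12 had 89.5, 84.4, 88.8 and 76.3 CPM in CNP-Cdk7cKO 1 to 4 and 88.9, 84.4, 93.8 and 87.6 CPM in Ctrl 1 to 4. Med13l had 92.4, 85.5, 91.9 and 73.0 CPM in CNP-Cdk7cKO 1 to 4 and 80.8, 86.1, 95.7 and 99.0 CPM in Ctrl 1 to 4. CNP-Cdk7cKO 4 was the lowest of the 8 for both, and for Med12l as well (6.48 CPM), while the groups overlapped. Of the 7 kinase module genes 6 were below 0 with a median of -0.13, and without CNP-Cdk7cKO 4 6 were still below 0 with a median of -0.03. With all 8 libraries, 7417 of the 15056 tested genes were below 0. Ccnc had 16.6 ± 1.42 CPM in CNP-Cdk7cKO and 18.2 ± 0.87 CPM in Ctrl (SD, n = 4 each; log2 fold change -0.13 ± 0.08). The paralogue pairs Med12 with Med12l and Med13 with Med13l share 0 words of 31 bases, and their log2 ratios differed by 0.16 and -0.08 (exact permutation p = 0.314 and 0.343).

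CNP-Cdk7cKO 4 was low for long transcripts in general. Over the 69 genes its deviation from the other 3 CNP-Cdk7cKO libraries correlated with transcript length at a Spearman rho of -0.39, and over 15041 tested genes with a length at -0.34. These points share 1 library, so the value is a description. The 8 genes of the set with transcripts of at least 5000 bases had a median log2 deviation of -0.22 in that library, against 0.02 for the 61 shorter ones. In CNP-Cdk7cKO 1 to 3 rho was 0.34, 0.21 and 0.16, and in the Ctrl libraries it ran from -0.11 to 0.20. CNP-Cdk7cKO 4 is part of the reference for CNP-Cdk7cKO 1 to 3. Its low long transcripts therefore raise their rho, and these values are not separate readings. The part of transcript length in the group differences was not tested; Cdk19, at a length of 4890 bases, had 28.2 CPM in CNP-Cdk7cKO 4, within the range of the other 3.

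**Figure D4:**
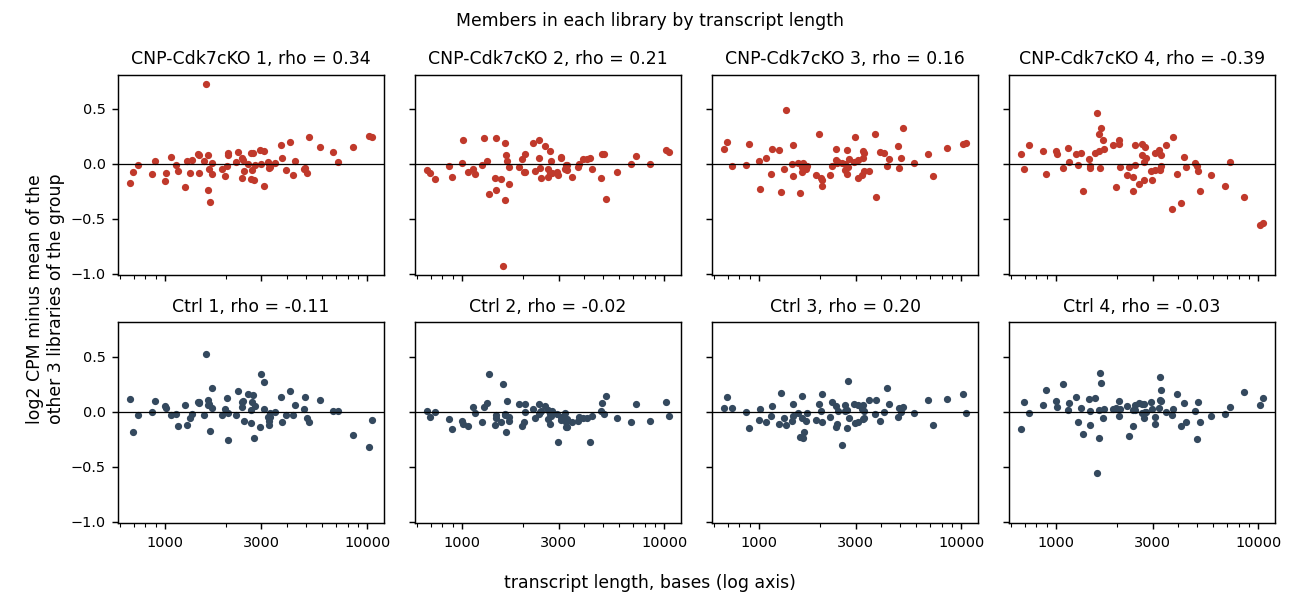
Deviation of each of the 69 genes from the mean of the other 3 libraries of its group (log2 CPM), by transcript length on a log axis, 1 panel per library, CNP-Cdk7cKO above Ctrl. In CNP-Cdk7cKO 4 most of the longest transcripts lie below 0 (rho -0.39), though Taf1 is at 0.020. In CNP-Cdk7cKO 1 most lie above 0 (rho 0.34), though Taf2 is at -0.083. CNP-Cdk7cKO 4 is part of the reference for CNP-Cdk7cKO 1.

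Head, middle and tail of Mediator had 0 of 26 genes called, where 11.7% of all tested genes were. The head contacts the polymerase, the middle transmits to it, and the tail receives activators. Of 12 head genes 8 had a log2 fold change above 0, from -0.17 (Med11) to 0.24 (Med29) with a median of 0.06. Of 9 middle genes 7 did, from -0.08 (Med14) to 0.20 (Med31) with a median of 0.11. Of 5 tail genes 2 did, from -0.12 (Med16) to 0.10 (Med25) with a median of -0.03. For all tested genes the share above 0 was 50.7%. Med1, the middle subunit bound by nuclear receptors, had 37.0 ± 2.23 CPM in CNP-Cdk7cKO and 34.2 ± 1.39 CPM in Ctrl (SD, n = 4 each; log2 fold change 0.11 ± 0.06, adjusted p = 0.243). Med17, the architectural centre of the head, had a value of 0.06 ± 0.06, and the X-linked scaffold Med14 one of -0.08 ± 0.11. The lowest CNP-Cdk7cKO value of Med14 was again CNP-Cdk7cKO 4, at 11.9 CPM.

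Of these 26 genes Med8, Med9, Med31 and Med16 had groups that did not overlap, and none was called; over the whole set the share without overlap was 17.4%, against 18.8% of all tested genes. Med9 in the middle had 25.1, 25.3, 24.4 and 28.1 CPM in CNP-Cdk7cKO 1 to 4 and 22.5, 23.8, 22.0 and 23.2 CPM in Ctrl 1 to 4 (log2 fold change 0.17 ± 0.06, adjusted p = 0.097). Med8 in the head had 38.1, 37.3, 36.4 and 41.3 CPM in CNP-Cdk7cKO 1 to 4 and 34.4, 35.5, 34.0 and 35.1 CPM in Ctrl 1 to 4 (0.14 ± 0.05, adjusted p = 0.117). Med31 in the middle had a value of 0.20 ± 0.10 (adjusted p = 0.219). All 4 CNP-Cdk7cKO libraries were higher for these genes. In the tail, Med16 was lower in all 4 CNP-Cdk7cKO libraries (-0.12 ± 0.06, adjusted p = 0.188).

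The X-linked genes of the set were read beside the sex of the libraries. Taf1, Med12, Med14 and Taf9b were tested and 0 were called. Ctrl 1, the female control, had 34.3 CPM of Taf1 and 88.9 CPM of Med12, against 32.0 to 35.4 and 84.4 to 93.8 CPM in the male Ctrl 2 to 4, inside their range. For the other X-linked genes Ctrl 1 was above the male controls, with 17.0 CPM of Med14, against 15.2 to 15.7 CPM, and 30.1 CPM of Taf9b, against 23.6 to 28.8 CPM.

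The complexes that work beside this machinery were read from lists of their genes. Of the 13 RNA polymerase II genes 12 had a log2 fold change above 0 (92.3%, against 50.7% of all tested genes). At an adjusted p under 0.05, 1 rose and 0 fell (7.69%, against 11.7% of all tested genes). That gene was Polr2a, which encodes the largest subunit, the substrate of Cdk7, with 266, 266, 231 and 251 CPM in CNP-Cdk7cKO 1 to 4 and 108, 114, 110 and 107 CPM in Ctrl 1 to 4 (log2 fold change 1.21 ± 0.05, adjusted p = 1.03e-06). Of 14 pausing and elongation factors 1 rose and 0 fell (7.14%, against the same 11.7%). It was Hexim1, the inhibitor of the elongation kinase P-TEFb, with 58.8 ± 3.4 CPM in CNP-Cdk7cKO and 47.7 ± 2.99 CPM in Ctrl (SD, n = 4 each; 0.30 ± 0.06, adjusted p = 0.00872). Of the 4 TBP regulators and of the 14 other SAGA genes 0 were called. The part of sex and muscle in the Polr2a and Hexim1 calls was not tested.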

How the data were processed

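The authors deposited estimated counts for each gene, made with STAR and Salmon on GRCm38 per the submitters' processing notes. Which versions, settings and annotation release they used is not given in the sources used here. Per the labels' protocols, libraries were stranded and polyadenylated. A share of 8.29% held fractions, and rounding made all values whole. Genes passing filterByExpr (minimum count 10, minimum total 15) were normalized by TMM and compared with the quasi-likelihood test of edgeR 4.0.16 (limma 3.58.1, R 4.3.3), with Benjamini-Hochberg adjustment over all 15056 genes tested. CPM are scaled by TMM. SE is the log2 fold change over the root of F. Library totals of 16897242 to 21527891 limit precision for the rarest genes.

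The members and lists were chosen with earlier results of these data known. Named in full were called members, the 3 with the smallest p, paralogue pairs and X-linked members. Log ratios of pairs were compared by exact permutation over libraries. Alternatives were RLE factors, TMM computed after dropping genes of muscle, blood, fat and mitochondria, no filter, 1 CPM in 4 libraries, DESeq2 1.42.0, limma-voom, a replicate block, Xist or muscle covariates, libraries with at least 10 CPM of Xist alone, and each library left out. Transcript lengths, 31-base words and overlaps came from GENCODE M21. The labels do not say that each library is a separate animal, so p-values measure the spread between libraries. On simulated counts (14922 genes) the fit recovered 22%, 58%, 80% and 96% of genes planted at 1.25-, 1.5-, 2- and 3-fold. At each fold 50 genes were planted, drawn from all tested genes. Together they are a smaller share than the 11.7% called in the real data. The recovery therefore does not give that of the real fit for this set.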

Additional observations from a re-analysis of the deposited data

Results flagged for a closer look

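In 7 of 138 gene and group combinations, 1 library lay apart from the other 3 by more than Dixon's 95% limit, about the 1 in 20 that chance gives. Gtf2e1 had 26.9 CPM in Ctrl 1, against 22.1 to 22.5 CPM in the other Ctrl libraries. Taf11 had 24.7 CPM in Ctrl 1, against 21.1 to 21.4 CPM. Med30 had 14.5 CPM in Ctrl 2, against 15.6 to 15.8 CPM. Taf5 had 5.59 CPM in CNP-Cdk7cKO 3, against 5.05 to 5.12 CPM in the others of that group, and 5.02 CPM in Ctrl 4, against 3.88 to 4.04 CPM in the other Ctrl libraries. Med21 had 24.3 CPM in CNP-Cdk7cKO 3, against 20.9 to 21.3 CPM. Med23 had 20.1 CPM in CNP-Cdk7cKO 2, against 18.7 to 18.9 CPM. None of these genes was called.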

How the results depend on the processing

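The count of members higher in CNP-Cdk7cKO was 1; it was 2 with no count filter, limma-voom or the replicate block, 3 with DESeq2 and 0 with the Xist covariate, the muscle covariate or the female libraries alone, and ran from 1 to 2 with 1 library left out (2 without Ctrl 1 or Ctrl 3). The count of members lower was 1, and 0 with either covariate or the female libraries alone; with 1 library left out it stayed 1. With those 3 settings 52, 54 and 51 of the 69 members kept their sign. The median log2 fold change of 0.06 became 0.03 with the muscle covariate and 0.04 with the female libraries alone, and was 0.04 to 0.08 with 1 library left out. Whether the replicate numbers pair the samples is not known. Same-numbered libraries correlated at 0.05, 0.11, 0.16 and 0.01 in their deviations from the group means, and differently numbered ones at -0.19 to 0.18. The replicate block added Taf6 to the calls (adjusted p = 0.0374).

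Over 36 named genes and 18 settings, 593 of 648 values kept direction and call, 7 gained a call, 6 lost one and 42 changed sign. All of the sign changes were in genes that were not called, and the cause was not tested. In the order Xist covariate, muscle covariate, female libraries alone, the values were Cdk8 -0.04, -0.04 and -0.04, Med13l 0.08, 0.06 and 0.08, Taf9 -0.28, -0.47 and -0.28, Taf5l 0.07, 0.03 and 0.07, Taf6l -0.05, -0.02 and -0.06, Gtf2a1 -0.11, -0.05 and -0.10, and Taf11 -0.08, -0.06 and -0.09. With Xist and with female libraries alone they were Med12l 0.03 and 0.04, Taf9b -0.08 and -0.08, Gtf2h1 0.04 and 0.03, and Taf3 0.16 and 0.15. With 1 library left out, values that crossed 0 ran from -0.03 to 0.01 for Taf4, -0.09 to 0.34 for Taf9, -0.03 to 0.09 for Taf9b, -0.02 to 0.07 for Taf6l, -0.01 to 0.12 for Gtf2a1, -0.15 to 0.02 for Med14, -0.00 to 0.13 for Tbp, -0.07 to 0.00 for Gtf2h1 and -0.10 to 0.04 for Taf3. The intervals of Taf9, Taf4b and Taf5 passed 1.5-fold, and the part of depth in this was not tested.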
